A study of Homo sapiens with 12 samples.

Results

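Fatty acid entry into mitochondria and its oxidation there were followed through 10 genes in cultured human neuroblastoma cells treated with ML210 or left as controls. The genes were CPT1A, its relatives CPT1B and CPT1C, the remaining carnitine shuttle genes CPT2 and SLC25A20, the beta-oxidation enzymes ACADVL, ACADM, HADHA and HADHB, and PDK4. They are 10 of 61552 genes in the counts table. CPT1A was chosen because its level was higher with ML210 under both line labels, so its ML210 values are given as a description without a test. The other 9 genes were chosen as its relatives, by their place in the same pathway or, for PDK4, by its part in the choice of fuel. Earlier results of these data were known when they were chosen.

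The series exposed cells to ML210, a covalent inhibitor of the lipid peroxide reductase GPX4, in an overnight culture, and asked how neuroblastoma cells with and without MYCN amplification respond. There were 12 mRNA sequencing libraries in 4 groups of 3: SK-N-BE(2) with ML210, SK-N-BE(2) control, SK-N-AS with ML210 and SK-N-AS control. All 4 groups carry the wild-type genotype label, and neither the dose of ML210 nor what the controls received is stated in the labels. Each group holds 1 library of each of 3 batches, and beyond that label nothing says that the libraries came from separate cultures, so a p-value measures the spread between these libraries. Each MYCN status is represented by 1 line. Libraries are named below by line label, treatment and replicate, so that BE(2) ML210 3 is replicate 3 with ML210 under the SK-N-BE(2) label.

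Totals ran from 54047293 to 83481963 counted reads. MYCN contradicted the line label of each of the 12 libraries. It stood at 0.154 ± 0.0898 CPM with ML210 and 0.166 ± 0.0727 CPM in controls labelled SK-N-BE(2), the line called amplified, and at 3853 ± 115 and 3557 ± 122 CPM in those labelled SK-N-AS (SD, n = 3 each). CPM values are read counts scaled to a common library size, after TMM normalization. The line names below are therefore labels, and every direction between them is a direction between labels that MYCN contradicts. GPX4, the target of ML210, was not called in any comparison made here. The 7 adrenergic markers summed to 944 to 1144 CPM in libraries labelled SK-N-BE(2) and to 2368 to 2643 CPM in those labelled SK-N-AS, and 7 mesenchymal markers to 2013 to 2451 CPM and 168 to 252 CPM. Between controls, 1 adrenergic marker was called higher labelled SK-N-BE(2) and 6 lower, and all 7 mesenchymal markers higher. Of all genes, 33.9% were called higher and 35.2% lower there. Blood cell markers summed to 163 to 330 CPM labelled SK-N-BE(2), with CD3E at 0, and to at most 3.46 CPM labelled SK-N-AS. Within a label, adrenergic markers summed to 2368 to 2455 CPM with ML210 and 2586 to 2643 CPM in controls labelled SK-N-AS, without overlap. Yet 0 of the 7 were called under that label, beside 0.0296% of all genes, and their median log2 difference was -0.04. Labelled SK-N-BE(2) the adrenergic sums overlapped, at 944 to 1144 and 1024 to 1085 CPM. PHOX2A, named after its values were seen, was called lower with ML210 under that label (-0.69, adjusted p = 0.017). It was the only 1 of the 7 called there, beside 1.37% of all genes, and the median log2 difference of the 7 was -0.13. Blood cell markers labelled SK-N-BE(2) overlapped, at 163 to 289 CPM with ML210 and 264 to 330 CPM in controls. The part of these cell markers in the results between line labels and with ML210 was not tested. Leaving out BE(2) ML210 3 moved the number of genes called with ML210 under that label to 1242, against 279 with all libraries, so results under that label are also given without it where the call changes.

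Long-chain fatty acids are activated to acyl-CoA at the outer mitochondrial membrane and cannot cross the inner one in that form. Carnitine palmitoyltransferase 1 moves the acyl group to carnitine and is the step that malonyl-CoA inhibits, the carrier encoded by SLC25A20 exchanges acylcarnitine for carnitine across the inner membrane, and CPT2 restores acyl-CoA in the matrix. Acyl-CoA dehydrogenases such as those encoded by ACADVL (very long chains) and ACADM (medium chains) then open each round of beta-oxidation, and the trifunctional protein of HADHA and HADHB completes it for long chains. PDK4 phosphorylates and inactivates the pyruvate dehydrogenase complex, which favours fatty acids over glucose as fuel. CPT1A is the form of liver and many other tissues, CPT1B that of muscle, and CPT1C is found mainly in neurons, where it has little transferase activity. Several of these genes are classical targets of the PPAR nuclear receptors.

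The promoter windows of the genes that the results turn on are shown first, each with 250 bases before and 50 bases after the RefSeq start on GRCh38.p14, written in the direction of transcription. Capitals mark GC boxes (GGGCGG or its reverse complement CCGCCC). The windows of CPT1A (chr11:68844228-68844527, minus strand) and SLC25A20 (chr3:48898833-48899132, minus strand) are those of the genes with the largest log2 ML210 differences among the 8 genes plotted below.
CPT1A: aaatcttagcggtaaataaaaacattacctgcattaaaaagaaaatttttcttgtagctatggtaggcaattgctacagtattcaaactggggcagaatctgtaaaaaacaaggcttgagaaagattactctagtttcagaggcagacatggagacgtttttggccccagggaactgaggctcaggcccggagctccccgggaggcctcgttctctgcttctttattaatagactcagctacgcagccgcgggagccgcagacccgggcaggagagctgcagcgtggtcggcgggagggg
SLC25A20: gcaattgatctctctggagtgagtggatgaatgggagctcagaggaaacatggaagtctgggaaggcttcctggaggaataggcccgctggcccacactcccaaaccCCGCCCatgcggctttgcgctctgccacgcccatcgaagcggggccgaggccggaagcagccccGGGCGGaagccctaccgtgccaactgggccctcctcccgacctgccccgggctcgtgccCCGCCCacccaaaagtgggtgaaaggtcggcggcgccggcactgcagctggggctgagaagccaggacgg
HADHA and HADHB, shown because the levels of both differ between line labels, lie head to head on opposite strands, with starts 307 bases apart, so their windows share 194 bases (chr2:26244689-26244882, written on the plus strand).
HADHA and HADHB shared bases: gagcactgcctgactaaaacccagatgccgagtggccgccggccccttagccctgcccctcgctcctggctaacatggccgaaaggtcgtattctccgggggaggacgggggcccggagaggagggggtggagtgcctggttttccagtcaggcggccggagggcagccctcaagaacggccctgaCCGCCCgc
The 6 motifs were searched on both strands of the 12 windows found for 9 of the 10 genes, CPT1B having none in the table used. They were the nuclear receptor half-site AGGTCA, the PPAR-RXR direct repeat of that half-site with 1 base between the copies, the core of the antioxidant response element (TGACNNNGC), an E-box (CACGTG), the GC box and the CCAAT box (CCAAT). The CPT1A window held none of the 6, and only 1 of its 8 protein-coding transcripts in GENCODE 29 begins within 250 bases of that start, with others beginning 2346 and 2361 bases downstream. SLC25A20 held 3 GC boxes, a motif present in 45% of all 35116 windows, and 1 of the 2 ACADVL windows held an antioxidant response core, present in 13.3%. No window of these genes held the PPAR-RXR repeat (0.0228% of all windows) or the half-site (13.8%). These are matches of letters, not measured binding.

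CPT1A (ENSG00000110090, chr11:68754620-68844410, minus strand, GRCh38 here and below) was higher with ML210 than in controls under both line labels, and its level was higher under the label SK-N-BE(2) in both treatments. Labelled SK-N-BE(2), CPT1A stood at 86.2, 93.6 and 89.9 CPM with ML210 and at 69.1, 69.6 and 67.7 CPM in controls of replicates 1, 2 and 3. Labelled SK-N-AS it stood at 57.6, 60.9 and 61.1 CPM with ML210 and at 35.7, 37.5 and 29.9 CPM in controls. Under each label every ML210 library lay above every control, and no ML210 library labelled SK-N-AS reached the lowest control labelled SK-N-BE(2). The log2 difference was 0.39 (SE 0.0739, 95% interval 0.22 to 0.56) labelled SK-N-BE(2), where same-batch pairs gave 0.32, 0.43 and 0.41. It was 0.80 (SE 0.0749, interval 0.63 to 0.98) labelled SK-N-AS, with pairs of 0.69, 0.70 and 1.03, and these are the values by which the gene was chosen. As fitted, the response labelled SK-N-BE(2) minus that labelled SK-N-AS was -0.42 on the log2 scale (SE 0.105). This value is built from those by which the gene was chosen. It is a description without a test and does not establish that the responses differ. In RNA from whole cultures, a change in the cells present and a change in RNA per cell cannot be told apart. Beside the CPT1A values labelled SK-N-AS, mitochondrially encoded transcripts took 3.82 to 4.62% of CPM with ML210 and 4.61 to 5.89% in controls, and labelled SK-N-BE(2) they took 1.85 to 2.54% and 1.80 to 2.08%. Their part in the CPT1A values was not tested.

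**Figure D1:**
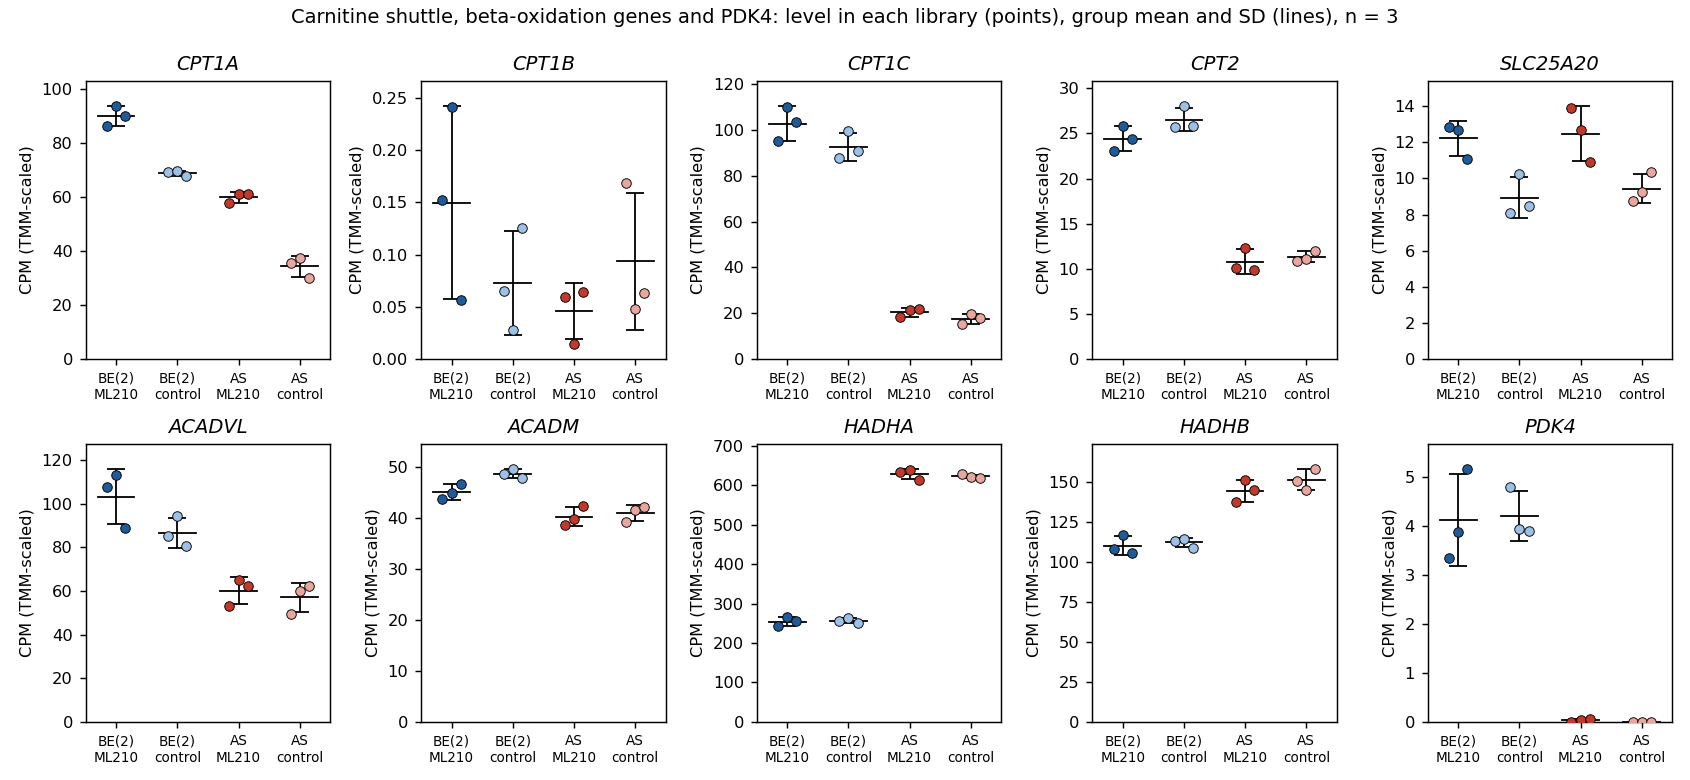
Levels of the 10 genes in CPM (vertical axes, linear from 0, own scale per gene) in libraries labelled SK-N-BE(2) and SK-N-AS, with ML210 and as controls. Points are libraries and lines the mean and SD (n = 3). CPT1A and SLC25A20 lie higher with ML210 under both labels, HADHA lies at 241.7 to 266.0 CPM labelled SK-N-BE(2) and 613.8 to 637.9 CPM labelled SK-N-AS, and PDK4 is near 0 labelled SK-N-AS.

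SLC25A20 (ENSG00000178537, chr3:48856931-48898993, minus strand), the carnitine-acylcarnitine carrier, was the 1 gene of the 9 tested that was called with ML210, in the mean over both line labels. Labelled SK-N-BE(2) it stood at 12.9, 12.7 and 11.1 CPM with ML210 and at 8.08, 10.2 and 8.48 CPM in controls. Labelled SK-N-AS it stood at 13.9, 12.7 and 10.9 CPM with ML210 and at 8.75, 9.24 and 10.3 CPM in controls. The ranges did not overlap under either label, although the lowest ML210 library labelled SK-N-AS lay close to the highest control. The log2 difference was 0.45 (SE 0.126, adjusted p = 0.101) labelled SK-N-BE(2) and 0.40 (SE 0.126, adjusted p = 0.533) labelled SK-N-AS by edgeR's quasi-likelihood test with Benjamini-Hochberg adjustment over 20304 genes, with the threshold at 0.05. All 6 same-batch pairs were positive, from 0.07 to 0.67. In the mean of both labels the difference was 0.43 (SE 0.0893, interval 0.22 to 0.63, adjusted p = 0.0356), and the responses did not differ detectably between labels (0.05, interval -0.36 to 0.46, adjusted p = 0.992).

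Leaving out a library often ended the call of SLC25A20 in the mean. It was lost without AS control 1, 2 or 3 (adjusted p = 0.078, 0.0954 and 0.0629), AS ML210 1 or 2 (0.0846 and 0.0987), BE(2) control 1 or 3 (0.101 and 0.0864) and BE(2) ML210 1 or 2 (0.0833 and 0.108). It was kept without AS ML210 3 (0.0472), BE(2) control 2 (0.0349) and BE(2) ML210 3 (0.0124), and the log2 difference stayed between 0.39 and 0.48. With all libraries, the call in the mean was kept under the 6 other choices of scaling, filter, block and test (adjusted p from 0.00113 by DESeq2 to 0.0419). Labelled SK-N-BE(2) alone, SLC25A20 was called with the batch as a block (0.46, adjusted p = 0.0427) and without BE(2) ML210 3 (0.50, adjusted p = 0.0499). The DESeq2 Wald test also called it there (0.44, adjusted p = 0.0339).

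CPT2 (ENSG00000157184, chr1:53196429-53214197, plus strand), the matrix transferase, did not pass the test with ML210. It stood at 23.0, 25.8 and 24.4 CPM with ML210 and at 25.7, 28.01 and 25.9 CPM in controls labelled SK-N-BE(2) (log2 -0.12, interval -0.34 to 0.10, adjusted p = 0.667). With the SK-N-AS label it stood at 10.1, 12.4 and 9.91 CPM with ML210 and at 10.9, 11.1 and 12.0 CPM in controls (-0.07, interval -0.30 to 0.15, adjusted p = 0.953). The ML210 and control ranges overlapped under both labels. Annotated antisense sequence covers 3993 bases of CPT2, and reads of both strands may be mixed because the strand setting of the counting is not known.

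CPT1C (ENSG00000169169, chr19:49690898-49713731, plus strand), the neuronal relative, was fitted slightly higher with ML210 without passing the test. Its levels were 95.1, 110.1 and 103.4 CPM with ML210 and 87.8, 99.6 and 90.7 CPM in controls labelled SK-N-BE(2) (log2 0.15, interval -0.07 to 0.37, adjusted p = 0.574). Labelled SK-N-AS they were 18.2, 21.4 and 21.8 CPM with ML210 and 15.1, 19.7 and 17.8 CPM in controls (0.22, interval -0.01 to 0.46, adjusted p = 0.716). The ranges overlapped under both labels, and replicate 1 was the lowest library in all 4 groups. In the mean of both labels the difference was 0.19 (adjusted p = 0.232), and it was called with the batch as a block (0.19, adjusted p = 0.0146). CPT1B (ENSG00000205560, chr22:50568861-50578465, minus strand), the muscle form, was barely counted: 29 reads over the 3 ML210 libraries and 15 over the controls labelled SK-N-BE(2), and 8 and 20 labelled SK-N-AS. It was not called in any comparison, and 9597 of its bases are shared on the same strand with the readthrough gene CHKB-CPT1B.

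**Figure D2:**
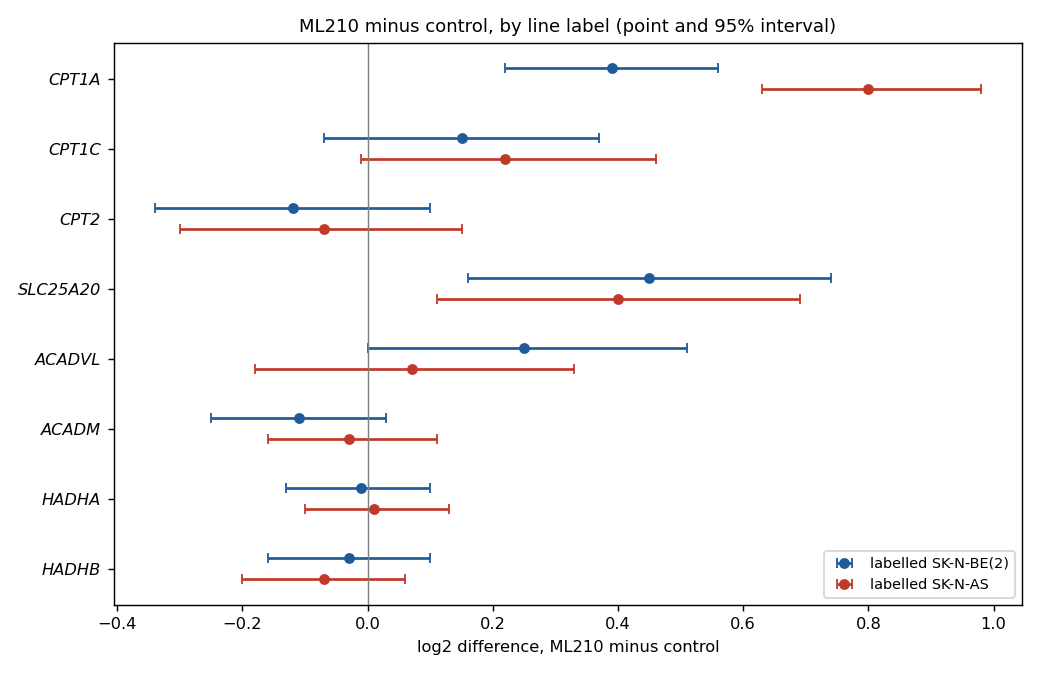
Log2 difference, ML210 minus control (horizontal axis), of 8 genes by line label, blue for libraries labelled SK-N-BE(2) and red for those labelled SK-N-AS. Points are estimates of the fit over all 12 libraries and bars their 95% intervals. CPT1A, chosen by these values and so not tested, lies at 0.39 and 0.80. SLC25A20 lies at 0.45 and 0.40 with intervals above 0, while the intervals of CPT2, ACADM, HADHA and HADHB include 0 under both labels.

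The 4 beta-oxidation enzymes did not pass the test with ML210 under either label. ACADVL (ENSG00000072778, chr17:7217125-7225273, plus strand) stood at 107.8, 113.0 and 89.0 CPM with ML210 and at 85.2, 94.3 and 80.6 CPM in controls labelled SK-N-BE(2). Every same-batch pair was higher with ML210, but BE(2) ML210 3 lay below the highest control, and the difference of 0.25 was not called (SE 0.11, adjusted p = 0.328). It was called with the batch as a block (0.25, adjusted p = 0.0145), as was the mean of both labels (0.16, adjusted p = 0.0256, against 0.374 without the block). Labelled SK-N-AS, ACADVL stood at 53.1, 64.97 and 62.3 CPM with ML210 and at 49.5, 59.7 and 62.1 CPM in controls (0.07, adjusted p = 0.96). DLG4 overlaps ACADVL by 2717 bases on the opposite strand.

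ACADM (ENSG00000117054, chr1:75724347-75787575, plus strand), the medium-chain enzyme, stood at 43.7, 44.9 and 46.7 CPM with ML210 and at 48.6, 49.6 and 47.9 CPM in controls labelled SK-N-BE(2). All 3 ML210 libraries were below all 3 controls there, yet the difference of -0.11 was not called (interval -0.25 to 0.03, adjusted p = 0.455). Labelled SK-N-AS the levels overlapped, at 38.6, 39.8 and 42.2 CPM with ML210 and 39.2, 41.5 and 42.1 CPM in controls (-0.03, adjusted p = 0.979). RABGGTB overlaps ACADM by 1379 bases and SNORD45C by 79 bases on the same strand. The pseudogene DLSTP1 overlaps it by 1354 bases on the opposite strand.

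HADHA (ENSG00000084754, chr2:26190635-26244726, minus strand), the alpha subunit of the trifunctional protein, had the narrowest intervals of the 10 genes. It stood at 241.7, 266.0 and 254.9 CPM with ML210 and at 256.2, 263.4 and 250.3 CPM in controls labelled SK-N-BE(2) (log2 -0.01, interval -0.13 to 0.10, adjusted p = 0.969). Labelled SK-N-AS it stood at 633.8, 637.9 and 613.8 CPM with ML210 and at 627.9, 622.0 and 619.8 CPM in controls (0.01, interval -0.10 to 0.13, adjusted p = 0.994). HADHB (ENSG00000138029, chr2:26243170-26290468, plus strand), the beta subunit, stood at 107.8, 116.6 and 105.8 CPM with ML210 and at 113.3, 114.3 and 108.9 CPM in controls labelled SK-N-BE(2) (-0.03, adjusted p = 0.925). With the SK-N-AS label it stood at 137.4, 151.0 and 144.9 CPM with ML210 and at 150.7, 145.1 and 158.0 CPM in controls (-0.07, adjusted p = 0.892). The annotated ends of both genes overlap by 1557 bases on opposite strands.

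PDK4 (ENSG00000004799, chr7:95583499-95596491, minus strand), a classical PPAR target that often moves with CPT1A in fasted tissues, was not called with ML210. Labelled SK-N-BE(2) it stood at 3.34, 3.89 and 5.17 CPM with ML210 and at 4.80, 3.94 and 3.89 CPM in controls. The groups overlapped, with a log2 difference of -0.03 (interval -0.62 to 0.57, adjusted p = 0.999). Labelled SK-N-AS it had 0, 2 and 3 reads with ML210 and none in the 3 controls, and a count of 0 over the control group allows up to 3 reads, or 0.0148 CPM. No ML210 fold is given there, since no library passed 3 reads.

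Across the ML210 comparisons few genes of any kind were called, and the shares of all genes stand beside the members' counts here. Labelled SK-N-BE(2), 0 of the 9 members other than CPT1A were called by edgeR, against 1.37% of all genes tested (0.818% higher and 0.557% lower). SLC25A20 and ACADVL had an unadjusted p under 0.05 there, as did 13.5% of all genes. DESeq2 called 1 member and 3.63% of all genes, and the fit with a batch block 2 members and 6.83% of all genes. Labelled SK-N-AS, 0 of 9 were called, against 0.0296% of all genes (0.0246% higher and 0.00493% lower), with SLC25A20, CPT1C and PDK4, the last on 5 reads in all, under an unadjusted p of 0.05, as were 6.89% of all genes. DESeq2 called 0 of these 9 members and 0.212% of all genes. In the mean of both labels 1 of 9, SLC25A20, was called and higher, against 1.23% of all genes in either direction with 0.699% higher and 0.532% lower, and 3 of 9 with the block, against 6.11% of all genes with the block. DESeq2 called 1 of 9 there and 3.68% of all genes, and 3 of 9 (CPT1C, SLC25A20 and PDK4) were under an unadjusted p of 0.05, against 14.1%. The PDK4 value rests on 5 reads with ML210 and 0 in controls labelled SK-N-AS, its difference labelled SK-N-BE(2) being -0.03. For the difference of the responses 0 of 9 were called (lowest adjusted p = 0.606), against 0.00493% of all genes, and DESeq2 called 0, against 0.202%. PDK4 alone was under an unadjusted p of 0.05, against 7.16% of all genes, and that p rests on 5 reads with ML210 and 0 in controls labelled SK-N-AS.

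Between the line labels most of the 10 genes differed, in both directions. In controls labelled SK-N-BE(2) relative to those labelled SK-N-AS, 6 of 10 members were higher and 2 lower, and with ML210 also 6 higher and 2 lower. These 8 of 10 stand against 69.2% of all genes called between the controls (33.9% higher and 35.2% lower) and 69.0% between the ML210 libraries (34.6% higher and 34.5% lower), so a share of this size is near the background. The median log2 difference of the members was 0.43 in controls and 0.68 with ML210, beside -0.005 and 0.017 over all genes tested. PDK4 lies above the other members by its fitted value and by its bound, so either leaves that median the same. Leaving PDK4 out lowers the median: the middle member is then ACADM in controls (0.25) and CPT1A with ML210 (0.59). PDK4 passed the filter on low counts through the libraries labelled SK-N-BE(2) alone, so it had to differ, and it is among the 6.

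**Figure D3:**
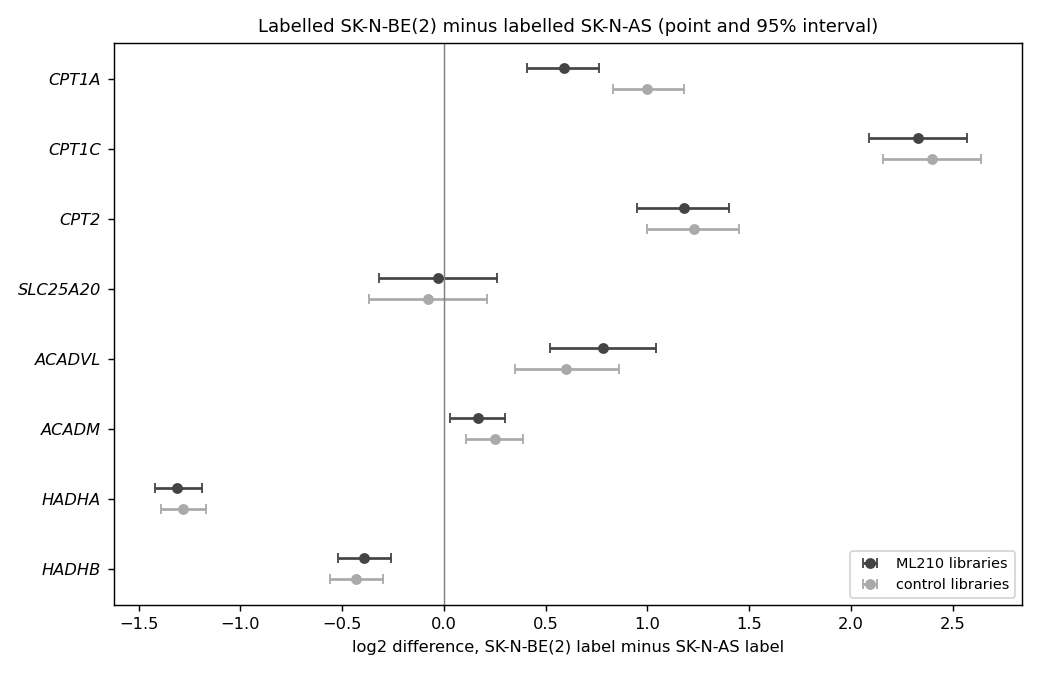
Log2 difference between line labels, SK-N-BE(2) minus SK-N-AS (horizontal axis), of 8 genes in ML210 libraries (dark) and controls (grey). Points are estimates of the fit over all 12 libraries and bars their 95% intervals. CPT1C, CPT2, CPT1A, ACADVL and ACADM lie above 0, HADHA and HADHB below 0 and SLC25A20 near 0, at -0.03 with ML210.

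CPT1C, CPT2 and CPT1A were higher under the label SK-N-BE(2), and CPT1B was not called (1.69, adjusted p = 0.0931 with ML210, and -0.38, adjusted p = 0.69 in controls, on few reads). CPT1C showed the largest difference of the 8 genes plotted, 2.33 with ML210 (SE 0.103, adjusted p = 1.91e-10) and 2.40 in controls (SE 0.103, adjusted p = 1.38e-10), with means of 102.9 and 20.5 CPM with ML210 and 92.7 and 17.6 CPM in controls. CPT2 differed by 1.18 with ML210 (adjusted p = 9.74e-08) and 1.23 in controls (adjusted p = 6.18e-08). CPT1A differed by 0.59 with ML210 (SE 0.0741, adjusted p = 7.53e-06) and by 1.00 in controls (SE 0.075, adjusted p = 3.34e-08). CPT1A was not chosen by its difference between labels, but these tests use the libraries by which it was chosen and are not independent of that choice. The means of CPT1A were 89.9 and 59.9 CPM with ML210, and 68.8 and 34.3 CPM in controls. SLC25A20 did not pass the test (-0.03, adjusted p = 0.838 with ML210, and -0.08, adjusted p = 0.593 in controls), and scaling by library totals turned the sign, to 0.17 in both.

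Of the 4 beta-oxidation members, both dehydrogenases were higher under the label SK-N-BE(2) and both trifunctional protein subunits lower. The dehydrogenase ACADVL was higher under the label SK-N-BE(2), by 0.78 with ML210 (adjusted p = 3.15e-05) and 0.60 in controls (adjusted p = 2.93e-04), and ACADM by 0.17 (adjusted p = 0.0228) and 0.25 (adjusted p = 0.00181). The ACADM difference with ML210 was not called without AS ML210 1 (adjusted p = 0.0957), AS ML210 2 (0.0712), BE(2) ML210 2 (0.0548) or BE(2) ML210 3 (0.0952), nor without a filter on low counts (0.0974). Both subunits of the trifunctional protein were lower, HADHA by -1.31 with ML210 (SE 0.0499, adjusted p = 4.84e-11) and -1.28 in controls (SE 0.0498, adjusted p = 5.34e-11). HADHB was lower by -0.39 with ML210 (adjusted p = 2.85e-05) and -0.43 in controls (adjusted p = 1.10e-05), and by -0.19 and -0.18 with library totals, still called. Library totals moved the median of all genes by 0.2 with ML210 and 0.248 in controls on the log2 scale.

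PDK4 was the member most different between labels. In ML210 libraries 828 reads labelled SK-N-BE(2) stood against 5 labelled SK-N-AS, a ratio of 151 per CPM (counting interval 64.6 to 467). In controls 861 reads stood against 0, at least 283-fold higher against a floor of 3 reads over the group. The 5 reads labelled SK-N-AS lay in replicates 2 and 3, at 0.703 and 1.15% of the mean PDK4 level labelled SK-N-BE(2). A set of 42 genes was chosen after values were seen. Each reached at least 50 CPM in all libraries labelled SK-N-BE(2). In every library labelled SK-N-AS each lay under 3% of its own mean over the libraries labelled SK-N-BE(2). The choice itself thus held these genes under 3%. In the same AS ML210 libraries, 2 and 3, they had medians of 1.19 and 1.77%. Their median was 0.362% in AS ML210 1, which had no PDK4 read, and 0.346, 1.69 and 1.48% in AS control 1, 2 and 3, which had none.

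Per kilobase of exon, HADHA was the most abundant of the 10 genes in every group and HADHB came next. Their means were 58.0 and 25.7 CPM per kb with ML210 and 58.5 and 26.2 in controls labelled SK-N-BE(2), and 143.3 and 33.8 with ML210 and 142.1 and 35.3 in controls labelled SK-N-AS. ACADVL followed in all groups, but labelled SK-N-BE(2) it did not separate from CPT1C, at 21.2 and 17.5 CPM per kb with ML210 and 17.8 and 15.8 in controls. CPT1A followed CPT1C there, at 13.7 CPM per kb with ML210, above ACADM at 9.43, and at 10.5 in controls, where it overlapped ACADM at 10.2. Labelled SK-N-AS, CPT1A at 9.12 CPM per kb overlapped ACADM at 8.40 with ML210. In the controls of that label it lay at 5.23, below ACADM at 8.56 and overlapping SLC25A20 at 4.76. CPT2, at 1.03 to 2.54 CPM per kb, was below SLC25A20 in every group, and the CPT1B means were at most 0.0365. Lengths are unions of all annotated exons, 10452 bases for CPT2 and 1982 for SLC25A20, and the order of these genes depends on them. In plain CPM labelled SK-N-BE(2), CPT2 lay above SLC25A20, at 24.4 and 12.2 with ML210 and 26.5 and 8.93 in controls. Labelled SK-N-AS they stood at 10.8 and 12.5 CPM with ML210 and 11.35 and 9.44 CPM in controls.

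Ratios within a library, which no scaling between libraries touches, set the shuttle steps against each other. The size of a ratio depends on the exon lengths used, but its comparison between groups does not. CPT1A per kb was 5.87 ± 0.0945 times CPT2 with ML210 and 4.13 ± 0.163 times in controls labelled SK-N-BE(2), and 8.93 ± 0.996 and 4.84 ± 0.771 times labelled SK-N-AS (SD, n = 3). SLC25A20 was 2.65 ± 0.28 times CPT2 with ML210 and 1.77 ± 0.139 times in controls labelled SK-N-BE(2), and 6.16 ± 0.981 and 4.38 ± 0.146 times labelled SK-N-AS. Both ratios to CPT2 were higher in every ML210 library than in any control of the same label. CPT1A relative to SLC25A20 overlapped between treatments labelled SK-N-BE(2), at 2.23 ± 0.212 with ML210 and 2.35 ± 0.269 in controls. Labelled SK-N-AS it was 1.47 ± 0.221 with ML210 and 1.11 ± 0.205 in controls, and the lowest ML210 library (1.255) lay just above the highest control (1.23). The balance of the transferase forms differed by label: CPT1A was 0.782 ± 0.0261 times CPT1C with ML210 and 0.665 ± 0.0394 times in controls labelled SK-N-BE(2), and 2.63 ± 0.183 and 1.77 ± 0.308 times labelled SK-N-AS. The subunit genes HADHA and HADHB stood at a ratio of 2.26 ± 0.0856 with ML210 and 2.23 ± 0.0237 in controls labelled SK-N-BE(2), and of 4.25 ± 0.215 and 4.03 ± 0.179 labelled SK-N-AS. Ratios with CPT1A include the values by which it was chosen, and no test was made on any of them.

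**Figure D4:**
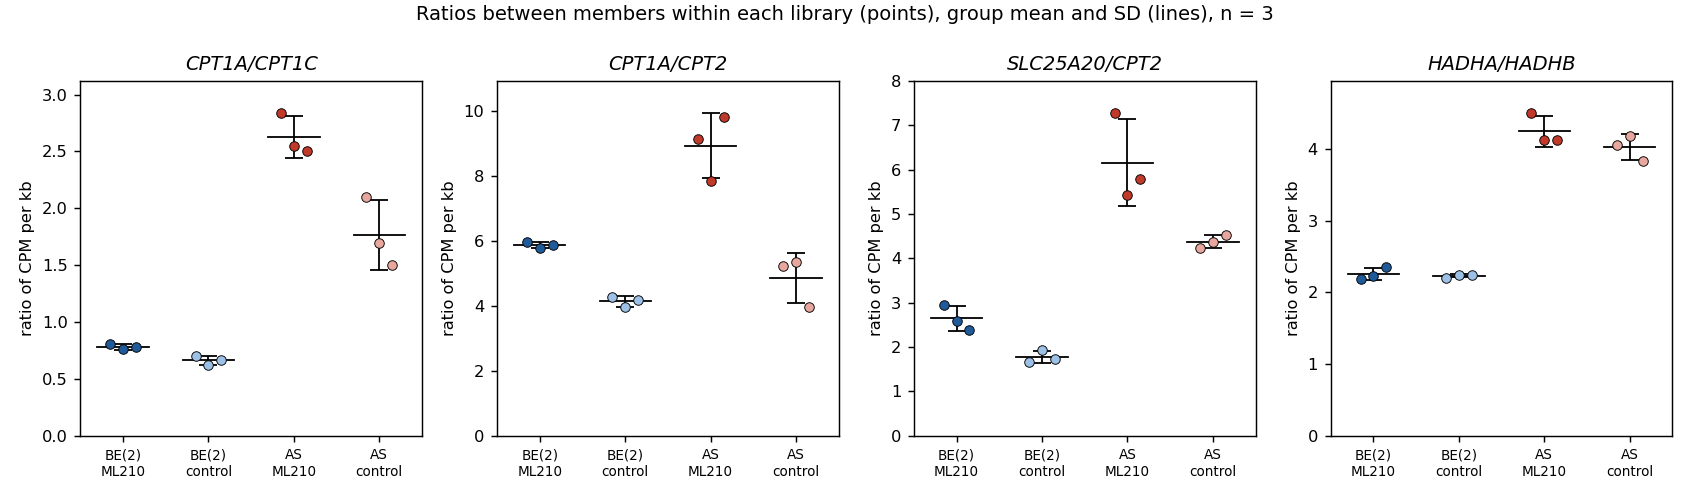
Ratios of CPM per kb between pairs of genes within each library (vertical axes, linear from 0), by line label and treatment. Points are libraries and lines the mean and SD (n = 3). CPT1A and SLC25A20 relative to CPT2 lie higher with ML210 than in controls of the same label, and HADHA relative to HADHB lies near 2.2 labelled SK-N-BE(2) and above 3.8 labelled SK-N-AS.

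The 10 lists of neighbouring functions held 94 further genes, of which 88 were tested. With ML210, 1 of 88 was called labelled SK-N-BE(2), or 1.14%, and 0 of 88 labelled SK-N-AS, beside the 1.37% and 0.0296% of all genes. At an unadjusted p under 0.05 there were 21 and 11 of the 88 (23.9% and 12.5%, beside 13.5% and 6.89% of all genes), and DESeq2 called 5 and 1 (5.68% and 1.14%, beside 3.63% and 0.212%). The 1 gene called by edgeR was PPARGC1B, a coactivator of the nuclear receptors that drive oxidative genes, at 13.6 ± 0.633 CPM with ML210 and 9.06 ± 0.868 CPM in controls labelled SK-N-BE(2) (log2 0.58, SE 0.0893, adjusted p = 0.0107). Labelled SK-N-AS it stood at 27.1 ± 0.567 and 25.8 ± 1.80 CPM (0.07, adjusted p = 0.938), and the difference between the responses was not called (0.51, adjusted p = 0.499). No gene of fatty acid uptake and activation, malonyl-CoA control, carnitine supply, other mitochondrial or peroxisomal beta-oxidation, electron transfer, pyruvate dehydrogenase control or ketone body handling was called with ML210 under either label by edgeR.

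Between controls, 31 of the 88 were higher labelled SK-N-BE(2) and 38 lower, or 78.4% called beside 69.2% of all genes (33.9% higher and 35.2% lower), and the counts by list below stand against those same shares. Of 5 carnitine supply and acyltransferase genes 4 were higher, among them the acetyltransferase CRAT (1.18) and the peroxisomal octanoyltransferase CROT (0.96), and the carnitine importer SLC22A5 was lower (-0.92). Of 5 genes of malonyl-CoA control, which sets the brake on CPT1, 3 were higher and 1 lower. The mitochondria-bound acetyl-CoA carboxylase ACACB was higher (1.63) and the cytosolic ACACA lower (-1.14). PRKAA2, also among the 3, stood at 12.1 ± 1.81 CPM labelled SK-N-BE(2) and at 0.147 ± 0.179 CPM labelled SK-N-AS. These counts by direction do not tell which way the control of CPT1 differs. Among 11 other mitochondrial beta-oxidation enzymes 4 were higher and 4 lower, with the isomerase ECI2 at 1.47 and the reductase DECR1 at -1.76. Of 14 peroxisomal genes 7 were higher and 3 lower, with the thiolase and sterol carrier SCP2 at 1.19 and the thiolase ACAA1 at -0.94. In the electron transfer flavoprotein, which takes electrons from the acyl-CoA dehydrogenases, ETFA (-0.55) and ETFB (-0.90) were lower, 2 of 3 on that list.

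Among 11 PPAR factors and coregulators 3 were higher and 5 lower, with PPARG at 35.2 ± 1.79 CPM labelled SK-N-BE(2) and 1.07 ± 0.24 CPM labelled SK-N-AS (5.05, adjusted p = 7.49e-11). Of 9 other PPAR targets 3 were higher, including the lipid droplet coat PLIN2 (2.15), and 5 lower, including the mitochondrial carrier UCP2 (-2.86). Of 13 genes of pyruvate dehydrogenase and its control, the list that PDK4 neighbours, 2 were higher and 8 lower, with the pyruvate carrier subunit MPC1 at -3.00 and the complex subunit DLAT at -1.87. Of 13 uptake and activation genes 4 were higher and 6 lower, with the transporter SLC27A1 at 3.36 and the binding protein FABP5 at -2.69. Of 4 ketone body genes 1 was higher and 3 were lower, including the thiolase ACAT1 (-2.90). With ML210 the same comparison between labels gave 32 higher and 36 lower, or 77.3%, beside 69.0% of all genes.

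The genes whose profile over the 12 libraries was most like that of CPT1A were TAMALIN, SLC38A9, DNASE2, TFE3 and AGTRAP. Likeness was the root mean square difference of log2 CPM (prior count 2), each gene centred on its own mean, among the 10399 genes whose mean log2 CPM reached 2. It ran from 0.161 for TAMALIN to 0.194 for AGTRAP. Genes chosen in this way had to resemble CPT1A in its steps between labels and with ML210. All 5 lay higher labelled SK-N-BE(2) (control log2 differences of 0.61 to 0.92) and were fitted higher with ML210, from 0.18 to 0.54. Among the members the nearest was ACADVL (0.309, rank 216), followed by CPT2 (0.432, rank 2431), ACADM (0.461, rank 2940), SLC25A20 (0.482, rank 3332), HADHB (0.701, rank 6303), CPT1C (0.825, rank 7510) and HADHA (1.09, rank 8965). Centred within each line label, which leaves the treatment and the replicates, NQO1 was nearest (0.138), followed by NECAB3, TAMALIN and PHLDB3, and 1 of the nearest 5 was shared. Libraries, their depth and the 2 steps of label and treatment are common to all these profiles, and the likeness is a description.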

How the data were processed

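Messenger RNA was sequenced in 12 libraries. The deposited values were counts of reads per gene, not normalized. The submitters' processing notes name HISAT2 2.2.1, featureCounts 2.0.5, Trimmomatic (as 1.4) and FastQC, on hg38/GRCh38. Strand setting, multi-mapping policy, annotation and the counting of reads or pairs are unstated in the labels and notes.

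The 10 genes, the lists and the tests were chosen with earlier results of these data known. Counts were filtered with filterByExpr by group (20304 genes left), scaled by TMM and fitted with edgeR 4.0.16 (R 4.3.3) as 4 group coefficients in 1 robust quasi-likelihood model (residual degrees of freedom 8, common dispersion 0.0223). Tests were two-sided, with Benjamini-Hochberg adjustment over all genes and calls at an adjusted p under 0.05. SEs are the log2 difference over the root of F, and intervals use 8 degrees of freedom. The test was tried on simulated counts with known changes in genes with many reads. It recovered 51% of log2 changes of 0.5 under either label. Of changes of 1 it recovered 96% labelled SK-N-AS and 89% labelled SK-N-BE(2). A gene that was not called is therefore not shown to be unchanged. Lengths and coordinates are GENCODE 29 exon unions, and promoter windows are from RefSeq on GRCh38.p14. Floors and counting intervals cover counting error only.

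Named genes were the 10 members, up to 3 called genes of each list with the smallest adjusted p, the 5 nearest to CPT1A, MYCN and GPX4. Alternatives were library totals, DESeq2 size factors, the DESeq2 1.42.0 Wald test, no filter, at least 1 CPM in 3 libraries, the 6 libraries of a label alone, each library left out, and a batch block. The batch label pairs same-numbered libraries. Deviations of such control and ML210 libraries from their group means correlated at 0.096, 0.12 and 0.169 labelled SK-N-BE(2) and 0.357, 0.068 and 0.121 labelled SK-N-AS. Some genes that the naming rule reached are not reported here.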

Additional observations from a re-analysis of the deposited data

How the results depend on the processing

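CPT1A kept its direction in every comparison and alternative run, with log2 differences of 0.34 to 0.40 labelled SK-N-BE(2), 0.71 to 0.87 labelled SK-N-AS and -0.48 to -0.33 for their difference when single libraries were left out. Of the values of single genes, 852 kept direction and side of the threshold, 6 gained a call, 14 lost one and 37 turned sign, the cause not tested. With the replicate block (batch within each line label) genes called numbered 1386 labelled SK-N-BE(2), 38 labelled SK-N-AS, 1240 in their mean and 85 for the difference of responses, against 279, 6, 250 and 1 without it, and members called 2 labelled SK-N-BE(2) and 3 in the mean, against 0 and 1. The block turned the mean of CPT1B to 0.0. It changed no other call of a member than those in the text. DESeq2 called 737, 43, 748 and 41 genes and 1 member labelled SK-N-BE(2), and the edgeR fit without a filter 556, 33, 531 and 24 genes. The 6 libraries of a label alone gave 51 genes labelled SK-N-BE(2) and 21 labelled SK-N-AS. Leaving out 1 library gave 48 to 1242 genes (without BE(2) ML210 2 and 3) and 0 to 1 members labelled SK-N-BE(2), 3 to 13 genes labelled SK-N-AS, 63 to 1006 genes and 0 to 1 members in the mean, and 1 to 156 genes for the difference. Between the labels, library totals gave 8344 genes higher and 5738 lower with ML210 (59.3% higher, against 50.1% by TMM) and 8575 and 5550 in controls (60.7%, against 49.1%), and in the mean ML210 response 237 higher and 75 lower (76%, against 56.8%). DESeq2 size factors gave 5 higher and 2 lower labelled SK-N-AS (71.4%, against 83.3%).

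Library totals turned ACADM labelled SK-N-AS to 0.03, the mean of HADHA to 0.03, the difference of responses to 0.0 for SLC25A20 and -0.01 for HADHB, and SLC25A20 between labels to 0.17 in ML210 and control libraries. At least 1 CPM in 3 libraries put the mean of HADHA at 0.01. With 1 library left out the sign turned within these ranges: labelled SK-N-BE(2), HADHA -0.07 to 0.01 and PDK4 -0.24 to 0.09; labelled SK-N-AS, ACADVL -0.02 to 0.16, ACADM -0.06 to 0.0 and HADHA 0.0 to 0.03. In the mean they were CPT1B -0.28 to 0.35 and HADHA -0.02 to 0.02, and for the difference CPT1C -0.17 to 0.02, CPT2 -0.12 to 0.07, SLC25A20 -0.04 to 0.13 and HADHB -0.03 to 0.07. Between labels they were SLC25A20 -0.12 to 0.05 with ML210 and -0.16 to 0.01 in controls, and CPT1B -1.0 to 0.37 in controls. None of these values was called. Centring within each line label kept 1 of the 5 genes nearest to CPT1A. Depth limits CPT1B and, labelled SK-N-AS, PDK4, which have a few reads per library.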

Other observations

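ANGPTL4, a secreted inhibitor of lipoprotein lipase and PPAR target on the fixed list, was named after its values were seen. It stood at 32.8 ± 2.91 CPM with ML210 and 9.00 ± 2.17 CPM in controls labelled SK-N-BE(2) (SD, n = 3 each), with no overlap of the ranges. Its log2 difference was 1.87 (SE 0.494, edgeR quasi-likelihood adjusted p = 0.113), larger than that of CPT1A but not called, and all 3 same-batch pairs were positive (1.62, 2.01 and 2.02). Labelled SK-N-AS it stood at 2.61 ± 1.33 and 0.735 ± 0.586 CPM with overlapping ranges (1.88, adjusted p = 0.587), again higher in 3 of 3 pairs. The mean of both labels was 1.87 (adjusted p = 0.0583), and DESeq2 called it there.

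The coactivator gene PPARGC1A, also named after its values were seen, differed between control labels, with 0.529 ± 0.223 CPM labelled SK-N-BE(2) and 24.0 ± 1.90 CPM labelled SK-N-AS (log2 -5.48, adjusted p = 1.12e-07), in the same direction as its relative PPARGC1B (-1.51, adjusted p = 3.25e-09).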
